A study of Mus musculus with 8 samples.

Results

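The Schlafen genes of the mouse were followed in macrophages that carried the Lsd1SA/SA knock-in, in which the histone demethylase LSD1 cannot be phosphorylated normally, and in wild-type macrophages, both with and without lipopolysaccharide (LPS). The 7 members, Slfn1, Slfn2, Slfn3, Slfn4, Slfn5, Slfn8 and Slfn9, were taken by name from a table of 23366 genes, and each was found there as 1 row. The cells were bone marrow-derived macrophages at passage 1 on the C57BL/6 background, and all were deprived of serum for 24 h. The 4 groups, with 2 libraries each, were knock-in with LPS for 2 h, untreated knock-in, wild type with LPS for 2 h, and untreated wild type. LPS, the bacterial endotoxin that macrophages sense through the receptor TLR4, has a labelled dose of 1 mg/ml. The labels do not say which cells or animals each replicate came from, so p-values here reflect the spread among these libraries alone, and that spread may be technical.

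Schlafen genes take their name from the German word for sleep, because the first members were found as genes that slow the growth of developing T cells. In the mouse they lie together on chromosome 11 and are sorted by protein size. Slfn1 and Slfn2 encode the shortest proteins, Slfn3 and Slfn4 intermediate ones, and Slfn5, Slfn8 and Slfn9 long ones with a helicase-like region at the end. Several are induced by type I interferon, the cytokine family that macrophages release after sensing LPS or viruses. Mice with a damaged Slfn2 lose quiescence in T cells and monocytes, and Slfn2 has been shown to bind transfer RNAs in T cells and to shield them from cleavage.

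All 7 members passed the filter on low values, which required 1 CPM in no fewer than 2 libraries and kept 11919 genes. Levels are in CPM, counts relative to a library size that the authors adjusted. The libraries held 40379258 to 55595160 reads, and each member had from 430 to 116292 reads in a library. Kdm1a, the gene for LSD1, was at 39.3 and 40.4 CPM in knock-in LPS, 33.7 and 32.6 CPM in untreated knock-in, 47.3 and 45.8 CPM in wild-type LPS and 33.9 and 31.1 CPM in untreated wild-type libraries; a knock-in that changes an amino acid need not change this level, so it does not check the labels. The libraries labelled knock-in LPS stood apart from the other 6. In them Xist, which silences the inactive X chromosome, was at 0.212 and 0.366 CPM, against 315 to 437 CPM elsewhere, while the summed reads of Uty, Kdm5d, Ddx3y and Eif2s3y, all on the Y chromosome, were 4993 and 5122 in them and 0 to 2 in the others. Wherever the knock-in LPS libraries enter a comparison, the sex of the cells and the label cannot be told apart. The LPS effect in wild type and the comparison of untreated genotypes do not involve those libraries, apart from the estimate of spread. Macrophage markers (10 in the table, none at 0) summed to 12634 to 13269 CPM with LPS and 14287 to 14961 CPM without it in the knock-in, and to 18177 to 18531 CPM with LPS and 14482 to 14521 CPM without it in wild type. After LPS, 2 of the 10 were called higher and 8 lower in knock-in than in wild type, at a limma adjusted p under 0.05. In that comparison 38.5% of all genes tested were called higher and 36.8% lower.

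The Schlafen genes did not respond to LPS as one group. Slfn2 rose far more in wild type than in the knock-in, Slfn1 and Slfn4 rose more in the knock-in, Slfn5 and Slfn8 rose in both, and Slfn3 and Slfn9 had the smallest changes. With LPS in the knock-in, 5 members were higher and 1 was lower, at a limma adjusted p under 0.05, where 28.5% of all genes tested were higher and 28.3% lower. With LPS in wild type, 6 were higher and 0 were lower, where 26.8% of all genes tested were higher and 30.7% lower; at an unadjusted p under 0.05 limma also had 0 lower, as did edgeR and DESeq2. The median log2 change of the members was 1.03 in the knock-in and 1.04 in wild type, beside medians over all genes tested of 0.016 and -0.032. A lower level in bulk RNA can mean fewer cells that express a gene or less RNA per cell, and these cannot be told apart here.

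**Figure D1:**
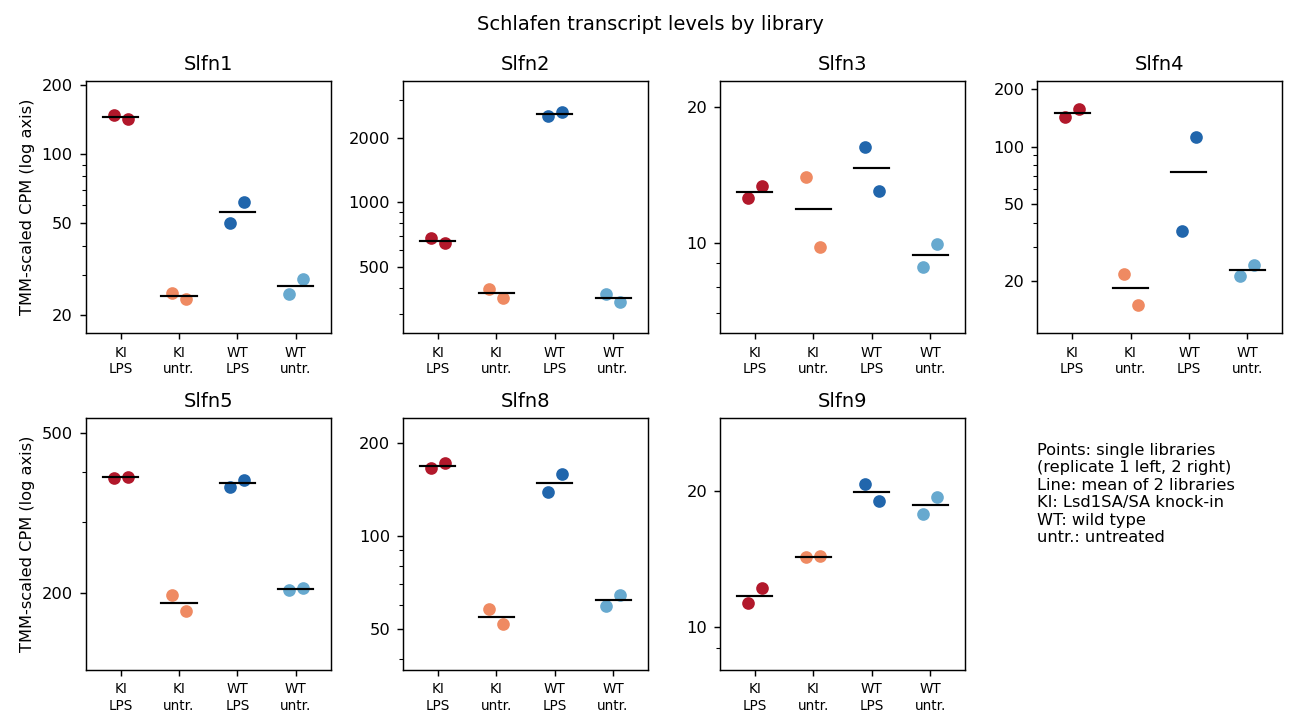
Levels of the 7 Schlafen genes in TMM-scaled CPM on a log axis, for each library of the 4 groups, with the mean of 2 libraries as a line. Slfn2 reached 2529 and 2629 CPM in the wild-type LPS libraries, whereas Slfn1 reached its highest values, 148 and 142 CPM, in the knock-in LPS libraries.

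Slfn2, the short member linked to quiescence and to protection of transfer RNA, was read most deeply. It stood at 680.2 and 646 CPM in the knock-in LPS libraries, against 394 and 359 CPM in untreated knock-in libraries. In wild type it stood at 2529 and 2629 CPM with LPS, against 373 and 344 CPM without it. All LPS libraries were above all untreated ones, and the 2 wild-type LPS libraries were far above the rest. LPS raised the mean 1.76-fold in the knock-in (log2 change 0.81 ± 0.052, SE; limma adjusted p = 2.43e-12) and 7.19-fold in wild type (2.84 ± 0.052; limma adjusted p = 1.11e-23).

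Slfn1, the other short member and one of the genes for which the family was named, moved the other way between genotypes. It stood at 148 and 142 CPM in the knock-in LPS libraries, against 24.9 and 23.4 CPM in untreated knock-in libraries. Wild-type libraries had 50.1 and 62.1 CPM with LPS, against 24.7 and 28.6 CPM without it. The knock-in LPS libraries were the highest, the wild-type LPS libraries lay between, and the 4 untreated libraries were lowest. The mean was 6.01-fold higher with LPS in the knock-in (log2 change 2.54 ± 0.080, SE; limma adjusted p = 2.97e-18) and 2.10-fold higher in wild type (1.04 ± 0.080; limma adjusted p = 4.41e-11).

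Slfn4, an intermediate member known from mouse myeloid cells, had the largest log2 change of the family with LPS in the knock-in. It stood at 143 and 157 CPM in the knock-in LPS libraries, against 21.6 and 14.95 CPM in untreated knock-in libraries. Wild-type libraries had 36.4 and 111 CPM with LPS, against 21.2 and 24.2 CPM without it. The 2 wild-type LPS libraries lay 3.06-fold apart, which is wider than the spread of any other member in any group, but neither overlapped with the untreated or the knock-in LPS libraries. The log2 change with LPS was 2.99 ± 0.25 (SE) in the knock-in (limma adjusted p = 4.90e-10) and 1.46 ± 0.25 in wild type (limma adjusted p = 2.81e-05). In wild type it was 2.25 without LPS replicate 1 and 0.66 without LPS replicate 2, and the call held in both cases.

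Slfn3, the nearest neighbour of Slfn4 and also intermediate in size, was low throughout. It stood at 12.6 and 13.4 CPM in the knock-in LPS libraries, against 14.0 and 9.77 CPM in untreated knock-in libraries, and these groups overlapped. Wild-type libraries had 16.3 and 13.0 CPM with LPS, against 8.84 and 9.95 CPM without it, and these did not overlap. It rose with LPS in wild type by 0.58 ± 0.12 on the log2 scale (SE; limma adjusted p = 2.76e-04). In the knock-in the log2 change was 0.14 with a 95% interval of -0.12 to 0.39 (limma adjusted p = 0.358). Leaving out replicate 1 of the untreated knock-in gave 0.38, which passed (limma adjusted p = 0.0200), but -0.10 when replicate 2 of that group was left out (limma adjusted p = 0.541); over all alternatives the adjusted p ran from 0.0200 to 0.650.

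Slfn5, a long member whose protein is found in the nucleus, rose in both genotypes. It stood at 385 and 389 CPM in the knock-in LPS libraries, against 197 and 181 CPM in untreated knock-in libraries. Wild-type libraries had 367 and 382 CPM with LPS, against 203 and 206 CPM without it. The 4 LPS libraries lay close together and well above the 4 untreated ones. The mean was 2.05-fold higher with LPS in the knock-in (log2 change 1.03 ± 0.048, SE; limma adjusted p = 6.01e-15) and 1.83-fold higher in wild type (0.87 ± 0.048; limma adjusted p = 8.11e-14). After quantile normalization the change in wild type was 0.41, still past the threshold.

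Slfn8, a long member with a helicase-like region, followed the same order. It stood at 166 and 172 CPM in the knock-in LPS libraries, against 58.0 and 51.8 CPM in untreated knock-in libraries. Wild-type libraries had 138 and 158 CPM with LPS, against 59.6 and 64.7 CPM without it. The LPS and untreated libraries were separate in both genotypes. The mean was 3.08-fold higher with LPS in the knock-in (log2 change 1.61 ± 0.064, SE; limma adjusted p = 2.90e-16) and 2.39-fold higher in wild type (1.24 ± 0.064; limma adjusted p = 1.95e-14).

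Slfn9, the neighbour and close relative of Slfn8, was the 1 member called lower with LPS, in the knock-in. It stood at 11.3 and 12.2 CPM in the knock-in LPS libraries, against 14.3 and 14.3 CPM in untreated knock-in libraries, and these did not overlap. Wild-type libraries had 20.7 and 19.0 CPM with LPS, against 17.8 and 19.4 CPM without it, and these overlapped. It fell by 0.27 on the log2 scale in the knock-in (SE 0.086; limma adjusted p = 0.0107), and that call was lost without knock-in LPS replicate 1 (-0.22, limma adjusted p = 0.101, with adjusted p over all alternatives from 0.00784 to 0.101). In wild type the log2 change was 0.090 with a 95% interval of -0.087 to 0.27 (limma adjusted p = 0.389).

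**Figure D2:**
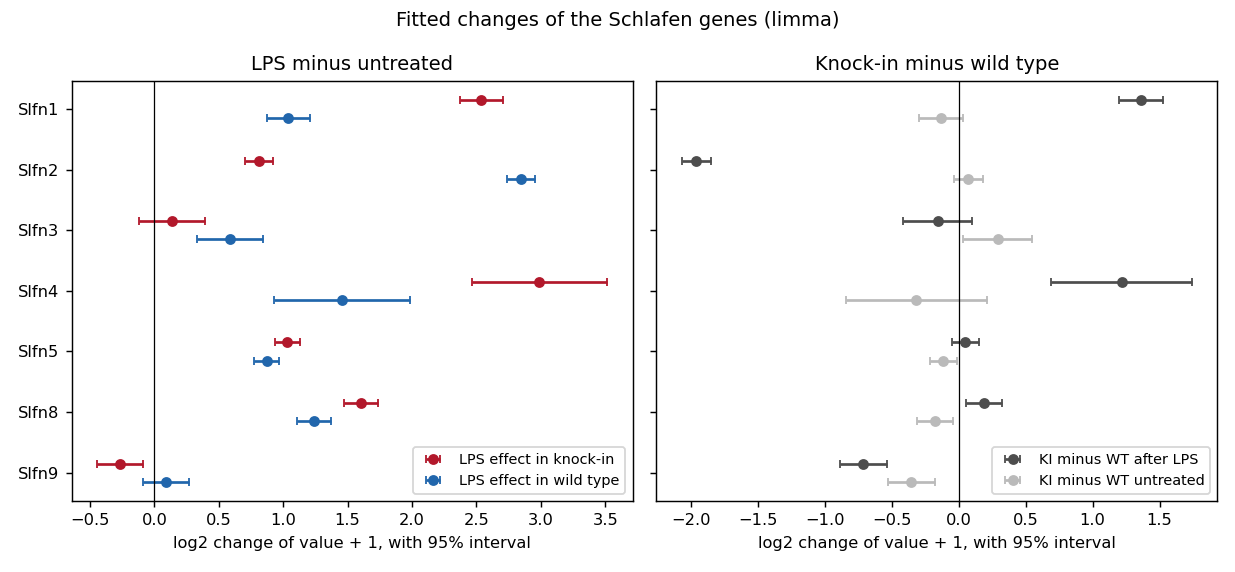
Fitted log2 changes of value + 1 for each Schlafen gene with 95% intervals, for LPS minus untreated in knock-in and wild type (left) and for knock-in minus wild type with and without LPS (right). Slfn1 and Slfn4 lie right of 0 and Slfn2 and Slfn9 left of 0 for knock-in minus wild type after LPS, at 1.36, 1.22, -1.96 and -0.71.

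The LPS effect itself differed between genotypes for every member by the interaction term, which subtracts the wild-type LPS effect from the knock-in one. It was higher in the knock-in for 4 members and lower for 3, where 31.8% of all genes tested were called higher and 31.8% lower. The differences were -2.03 for Slfn2 (SE 0.074; limma adjusted p = 2.59e-17), 1.497 for Slfn1 (SE 0.11; limma adjusted p = 3.97e-11) and 1.53 for Slfn4 (SE 0.36; limma adjusted p = 7.31e-04). Slfn8 differed by 0.36 (limma adjusted p = 0.00126), a call that held under every alternative run, with 0.60 after quantile normalization. The remaining differences were -0.45 for Slfn3, -0.36 for Slfn9 and 0.16 for Slfn5, at limma adjusted p of 0.0295, 0.0132 and 0.0424.

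Libraries and settings mattered for some of these differences. The Slfn4 difference was 0.74 without wild-type LPS replicate 1 and 2.32 without wild-type LPS replicate 2. It passed in both cases, but DESeq2 gave an adjusted p of 0.137, with adjusted p over all alternatives from 1.08e-09 to 0.137. The Slfn3 difference was -0.21 without untreated knock-in replicate 1 (limma adjusted p = 0.294), -0.29 without wild-type LPS replicate 1 (limma adjusted p = 0.196) and -0.69 without untreated knock-in replicate 2 (limma adjusted p = 9.17e-04). The Slfn3 call was also lost without either knock-in LPS replicate or untreated wild-type replicate 1, with adjusted p over all alternatives from 9.17e-04 to 0.294. The Slfn5 call was lost by edgeR (adjusted p = 0.159) and by DESeq2 (adjusted p = 0.0909), without either knock-in LPS replicate, without wild-type LPS replicate 1, without untreated wild-type replicate 2, and without untreated knock-in replicate 2, where the difference was 0.098. Its difference was 0.59 after quantile normalization, with adjusted p over all alternatives from 3.34e-07 to 0.268. With no filter and with no variance trend, the calls of Slfn3, Slfn4 and Slfn5 were lost, and the Slfn5 call was also lost with median-of-ratios scaling. The Slfn9 call was lost without knock-in LPS replicate 1, wild-type LPS replicate 1 or untreated wild-type replicate 1, at limma adjusted p of 0.0614, 0.0631 and 0.0545, with adjusted p over all alternatives from 0.00521 to 0.0631.

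After LPS, 3 members were higher and 2 lower in knock-in than in wild-type cells, where 38.5% of all genes tested were higher and 36.8% lower. Slfn2 was the most reduced, at a mean of 663 ± 23.9 CPM in the knock-in and 2579 ± 70.5 CPM in wild type (SD, n = 2 each; log2 difference -1.96, limma adjusted p = 2.09e-20). Slfn9 was at 11.7 ± 0.630 CPM in the knock-in and 19.8 ± 1.19 CPM in wild type (-0.71, limma adjusted p = 7.80e-08). Slfn1 was at 145 ± 4.65 CPM in the knock-in and 56.1 ± 8.44 CPM in wild type (1.36, limma adjusted p = 1.61e-13). Slfn4 was at 149.9 ± 9.72 CPM in the knock-in and 74.0 ± 53.1 CPM in wild type (1.22, limma adjusted p = 1.56e-04). Its difference was 0.42 without wild-type LPS replicate 1 and 2.01 without wild-type LPS replicate 2, and DESeq2 did not call it (adjusted p = 0.0935, with adjusted p over all alternatives from 1.16e-10 to 0.0935).

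The long members Slfn5 and Slfn8 had the smallest differences between genotypes after LPS apart from Slfn3. Slfn8 was at 169 ± 4.49 CPM in the knock-in and 148 ± 14.1 CPM in wild type (log2 difference 0.19, limma adjusted p = 0.0112). This call was lost without wild-type LPS replicate 1 (0.091, limma adjusted p = 0.274), without knock-in LPS replicate 2 (limma adjusted p = 0.0988), with no filter and with no variance trend, and the difference was 0.28 without wild-type LPS replicate 2 and 0.44 after quantile normalization, with adjusted p over all alternatives from 4.55e-06 to 0.274. Slfn5 was at 387 ± 2.49 CPM in the knock-in and 375 ± 11.1 CPM in wild type. Its log2 difference was 0.048 with a 95% interval of -0.052 to 0.15 (limma adjusted p = 0.372), but 0.46 and past the threshold after quantile normalization (limma adjusted p = 3.82e-08), with adjusted p over all alternatives from 3.82e-08 to 0.925. Slfn3 differed by -0.16 with an interval of -0.41 to 0.10 (limma adjusted p = 0.257).

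In these same knock-in LPS libraries, transcripts used as markers of other cells also differed. Of 4 stromal markers tested, 4 were called higher in knock-in LPS than in wild-type LPS libraries. Over all genes tested, 38.5% were called higher and 36.8% lower in this comparison. The 6 stromal markers in the table summed to 52.3 to 52.8 CPM in knock-in LPS and 15.1 to 16.1 CPM in untreated knock-in libraries. In wild type they summed to 10.5 to 11.3 CPM with LPS and 12.3 to 13.5 CPM without it. None of the 6 was at 0 in all libraries. Of 11 neutrophil markers in the table, 4 were called higher and 6 lower in knock-in LPS than in wild-type LPS libraries, beside the same shares over all genes. They summed to 518 to 527 CPM in knock-in LPS and 376 to 386 CPM in untreated knock-in libraries, and to 784 to 804 CPM in wild-type LPS and 378 to 388 CPM in untreated wild-type libraries, with none at 0 in all libraries. Whether these transcripts came from other cells was not tested, nor was the part of such cells, or of sex, in the Schlafen differences.

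Without LPS, no member differed between knock-in and wild type at the threshold, by limma, edgeR or DESeq2, each with 0 called higher and 0 lower, where limma called 0.00839% of all genes tested higher and 0% lower. At an unadjusted limma p under 0.05, 1 member was higher and 3 were lower in the knock-in. Of the 11919 genes tested, 1617 had such a p, in either direction. Slfn9 was lowest against wild type, at 14.3 ± 0.0292 CPM in the knock-in and 18.6 ± 1.12 CPM in wild type (SD, n = 2 each). Its log2 difference was -0.35 with a 95% interval of -0.53 to -0.18 (limma adjusted p = 0.122), its libraries did not overlap, and the call passed without untreated wild-type replicate 1 (-0.41, limma adjusted p = 0.0268, with adjusted p over all alternatives from 0.0268 to 0.855). Slfn2 differed by 0.071 with an interval of -0.037 to 0.18, Slfn1 by -0.13 with an interval of -0.30 to 0.030, and Slfn4 by -0.32 with an interval of -0.84 to 0.21. Slfn5 (-0.11), Slfn8 (-0.18) and Slfn3 (0.29) had limma adjusted p of 0.302, 0.246 and 0.302.

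Levels were also set per kb of transcript, so that members could be ranked against each other. The length of the longest RefSeq-matched GENCODE vM21 transcript was used, from 1664 bases for Slfn2 to 5979 bases for Slfn5, since the sources used here do not give the authors' gene models. Slfn2 ranked first and Slfn9 last in each of the 4 groups. In knock-in LPS cells the order was Slfn2, Slfn1, Slfn5, Slfn8, Slfn4, Slfn3 and Slfn9, at means of 399, 77.8, 64.8, 42.1, 37.9, 7.14 and 2.03 CPM per kb, with no overlap between neighbours. In the other groups Slfn5 ranked second. The neighbours Slfn8 and Slfn1 overlapped in both untreated groups, Slfn3 and Slfn4 did so there too, and Slfn1 and Slfn4 did so in wild-type LPS libraries.

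Slfn2 made up more of the family's signal in wild-type LPS libraries, and less in knock-in LPS libraries, than in any untreated library. It held 64.0% and 62.5% of the summed level per kb in the knock-in LPS libraries, against 75.6% and 76.2% in untreated knock-in libraries. In wild type it held 91.3% and 90.0% with LPS, against 74.9% and 71.9% without it. Slfn1 held 12.4% and 12.2% in the knock-in LPS libraries, against 4.26% and 4.44% in untreated knock-in libraries, and in wild type 1.62% and 1.90% with LPS, against 4.43% and 5.33% without it. The summed level was 639 and 622 CPM per kb in knock-in LPS libraries, against 313 and 283 CPM per kb in untreated knock-in libraries, and 1665 and 1755 CPM per kb in wild-type LPS libraries, against 299.7 and 288 CPM per kb in untreated wild-type libraries.

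**Figure D3:**
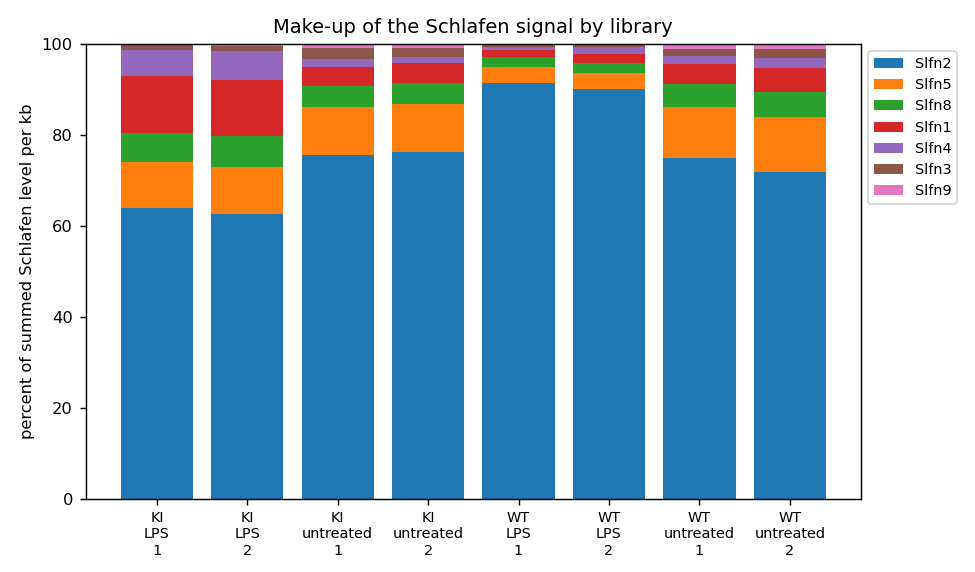
Share of the summed Schlafen level per kb that each member held in each of the 8 libraries, in percent. The Slfn2 share was lowest in the knock-in LPS libraries (64.0% and 62.5%) and highest in the wild-type LPS libraries (91.3% and 90.0%).

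The members that rose with LPS were also read for sequence they share before their transcript starts. Promoter windows from 250 bases before to 50 bases after the start were taken from RefSeq on GRCm38.p6, another build than the authors' mm9, and all 7 members had one. Both strands were searched for the interferon-stimulated response element (ISRE; GAAA, any 2 bases, GAAA), the interferon gamma activated site (GAS; TTC, any 3 bases, GAA), a kappaB site (GGGA, any 2 bases, TTCC) and an AP-1 site (TGA, any base, TCA). The ISRE letters were found in 3.44% of 32851 such windows of all genes, the GAS letters in 8.30%, the kappaB letters in 1.47% and the AP-1 letters in 7.81%. Of the 7 members, Slfn5, Slfn8 and Slfn9 held the ISRE letters, Slfn4 held the AP-1 letters, and none held the GAS or kappaB letters. In Slfn5 the match was GAAAAAGAAA, at 155 to 146 bases before the start, and in Slfn4 it was tgactca, at 34 to 28 bases before the start.

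The Slfn8 and Slfn9 windows are shown because these neighbours share a promoter stretch and differed in their LPS response, and the Slfn2 and Slfn1 windows because these genes had the largest differences in each direction between knock-in and wild type after LPS. Capitals mark the ISRE letters, which read here on the opposite strand.
Slfn8, GRCm38.p6 chr11:83020761-83021060, minus strand: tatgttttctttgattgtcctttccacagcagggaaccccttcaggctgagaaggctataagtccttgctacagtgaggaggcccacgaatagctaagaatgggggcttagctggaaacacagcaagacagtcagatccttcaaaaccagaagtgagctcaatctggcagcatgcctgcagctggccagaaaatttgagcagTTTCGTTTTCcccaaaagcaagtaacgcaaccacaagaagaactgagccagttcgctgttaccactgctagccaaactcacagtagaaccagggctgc
Slfn9, GRCm38.p6 chr11:82991781-82992080, minus strand: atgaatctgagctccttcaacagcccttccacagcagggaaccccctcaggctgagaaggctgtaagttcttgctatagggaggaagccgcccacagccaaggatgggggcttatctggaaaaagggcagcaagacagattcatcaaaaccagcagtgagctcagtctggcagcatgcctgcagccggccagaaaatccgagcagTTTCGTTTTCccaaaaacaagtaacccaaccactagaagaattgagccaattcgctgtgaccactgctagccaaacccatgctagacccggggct
Slfn2, GRCm38.p6 chr11:83064862-83065161, plus strand: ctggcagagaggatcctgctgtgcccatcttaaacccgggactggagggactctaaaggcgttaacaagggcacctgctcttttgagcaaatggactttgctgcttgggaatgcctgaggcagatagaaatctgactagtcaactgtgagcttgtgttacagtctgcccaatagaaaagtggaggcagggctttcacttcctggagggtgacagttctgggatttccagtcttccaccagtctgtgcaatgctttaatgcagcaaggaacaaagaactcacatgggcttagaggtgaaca
Slfn1, GRCm38.p6 chr11:83116570-83116869, plus strand: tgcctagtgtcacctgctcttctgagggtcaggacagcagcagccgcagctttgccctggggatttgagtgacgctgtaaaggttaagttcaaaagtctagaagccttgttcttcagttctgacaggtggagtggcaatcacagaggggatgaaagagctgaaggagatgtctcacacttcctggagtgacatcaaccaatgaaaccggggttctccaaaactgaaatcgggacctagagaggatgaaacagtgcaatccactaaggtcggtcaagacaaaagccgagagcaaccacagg
Slfn8 and Slfn9 carried the same 10 letters, TTTCGTTTTC, at 48 to 39 and at 45 to 36 bases before the start. RefSeq gives Slfn8 2 starts, and the window shown is that of the first; from the second start the same letters lie 136 to 127 bases before. Their windows were identical at 80.8% of 312 aligned positions, against 46.5% to 53.0% for the other pairs of members. Slfn8 was 3.08-fold higher and Slfn9 0.820-fold as high with LPS in the knock-in, so the shared letters went with different changes. Slfn2 and Slfn1 held none of the 4 motifs in these windows, which says only that these letters are not there.

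**Figure D4:**
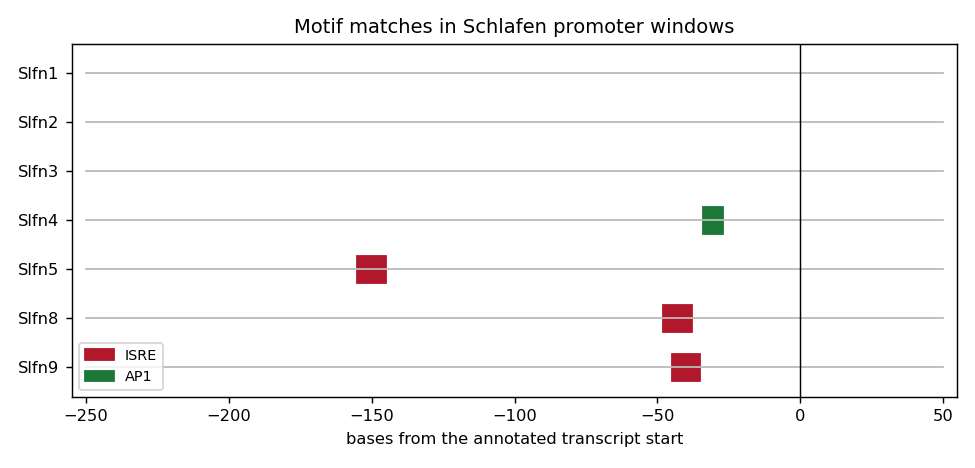
Positions of motif matches in the promoter windows of the 7 members, from 250 bases before to 50 bases after the annotated start; boxes mark the ISRE and AP-1 letters. Slfn8, drawn for the first of its 2 starts, has the ISRE letters at 48 bases, Slfn9 at 45 bases and Slfn5 at 155 bases.

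The members lie in a row on chromosome 11, in the order Slfn5, Slfn9, Slfn8, Slfn2, Slfn1, Slfn4 and Slfn3, with Slfn10-ps between Slfn8 and Slfn2. Slfn5, Slfn2, Slfn1, Slfn4 and Slfn3 are on the plus strand, and Slfn9 and Slfn8 on the minus strand. Some neighbours had like changes and others did not. Slfn1 and Slfn4 both rose with LPS, by 2.54 and 2.99 on the log2 scale in the knock-in and by 1.04 and 1.46 in wild type. Slfn4 and Slfn3 both rose in wild type, by 1.46 and 0.58, but in the knock-in no change of Slfn3 was detected. Slfn8 rose in both genotypes, whereas its neighbour Slfn9 was lower in the knock-in and had no change detected in wild type. AI662270, a transcript annotated after Slfn3, had log2 changes with LPS of -0.23 in the knock-in and 0.33 in wild type. Slfn10-ps, annotated as a pseudogene, was at 43.8 and 45.0 CPM in the knock-in LPS libraries, against 27.2 and 24.9 CPM in untreated knock-in libraries. In wild type it was at 36.6 and 28.4 CPM with LPS, against 28.8 and 29.1 CPM without it. It rose in the knock-in by 0.75 on the log2 scale (limma adjusted p = 7.50e-08) and differed by 0.15 in wild type (limma adjusted p = 0.130). The table also held Slfn14-ps, which RefSeq lists as Slfn14, and Slfnl1, each with at most 2 reads in a library.

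Some reads could have come from more than one member. Windows of 50 bases were compared between the members' transcripts, Slfn10-ps and Slfn14. Of the Slfn3 windows 14.3% were also in Slfn4, of the Slfn8 windows 14.6%, of the Slfn9 windows 11.2% and of the Slfn4 windows 8.37% were also in another Schlafen transcript, while for Slfn5 the share was 0%, for Slfn1 0.606% and for Slfn2 4.27%. For Slfn10-ps the share was 19.7%, the largest of all, and 10.7% of the windows of the more abundant Slfn8 were also in Slfn10-ps. The sources used here do not say how such reads were treated, so the values of Slfn3, Slfn4, Slfn8, Slfn9 and Slfn10-ps are uncertain. The share of windows does not limit the error of a low gene such as Slfn3 beside a more abundant one such as Slfn4. Slfn2 and Slfn5 each overlap an annotated antisense gene, Gm20234 and Slfn5os, and without a stated strand their reads cannot be told apart.

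Type I interferon signalling, which induces several Schlafen genes, was read from 13 genes. Of these, 10 were higher and 1 lower with LPS in the knock-in (median log2 change 0.56), and 9 were higher and 2 lower with LPS in wild type (0.38). Over all genes tested, 28.5% were called higher and 28.3% lower in the knock-in, and 26.8% and 30.7% in wild type. Ifnb1, the gene for interferon beta, was at 0.463 and 0.565 CPM in the knock-in LPS libraries, against 0.0459 and 0 CPM in untreated knock-in libraries. In wild type it was at 45.4 and 43.0 CPM with LPS, against 0 and 0 CPM without it. Stat2, a subunit of the factor that binds the ISRE, was at 364 and 359.6 CPM in the knock-in LPS libraries, against 122 and 119 CPM in untreated knock-in libraries. In wild type Stat2 was at 92.0 and 94.2 CPM with LPS, against 123 and 131 CPM without it. The signalling genes thus split, with Ifnb1 high only in wild-type LPS libraries and Stat2 high only in knock-in LPS libraries of these 8. Irf7 (1.34) and Irf9 (0.77) also rose on the log2 scale with LPS in the knock-in, while in wild type Irf9 (-0.0051) did not pass and Irf7 fell by 0.24.

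Of 30 interferon-stimulated effector genes, 30 were higher with LPS in the knock-in (median 1.71) and 24 were higher in wild type (median 0.58). Over all genes tested, 28.5% were called higher in the knock-in and 26.8% in wild type. In knock-in against wild-type cells after LPS, 38.5% of all genes tested were higher and 36.8% lower. Of the 30, 18 were higher and 11 lower (median 0.71, beside 0.023 over all genes tested). Zbp1, a nucleic acid sensor (2.33), and Oas3, an oligoadenylate synthetase gene (2.27), were among the higher ones, as were Slfn1 and Slfn4 of the Schlafen genes. Rsad2, which encodes the antiviral enzyme viperin, was lower (-2.04), as was Slfn2. In the plot of LPS effects in each genotype, interferon-stimulated genes lie on both sides of the line of equal change, as the Schlafen genes do. By the interaction term 31.8% of all genes tested were called higher and 31.8% lower, so lying on both sides sets neither group apart.

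**Figure D5:**
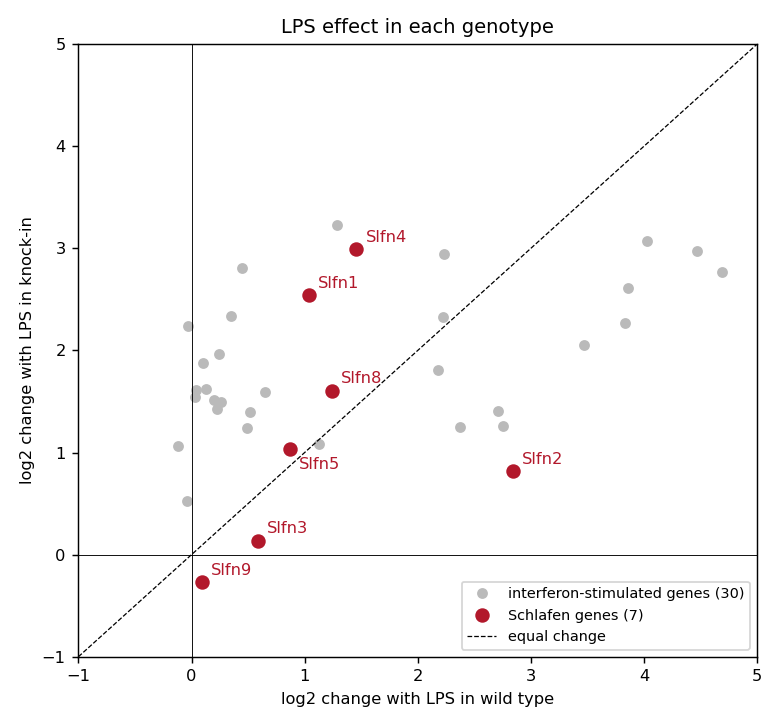
Log2 change with LPS in the knock-in (vertical) against that in wild type (horizontal), for 7 Schlafen genes and 30 interferon-stimulated genes, with a dashed line of equal change. Slfn1 (2.54 in knock-in, 1.04 in wild type) and Slfn4 (2.99, 1.46) lie above the line and Slfn2 (0.81, 2.84) below it.

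Genes that restrain growth were read because Slfn2 is tied to quiescence. Of 15 such genes, 4 were higher and 9 lower with LPS in the knock-in, and 3 were higher and 7 lower in wild type. Over all genes tested, 28.5% were called higher and 28.3% lower in the knock-in, and 26.8% and 30.7% in wild type. The antiproliferative genes Btg1 and Btg2 had log2 changes of 0.55 and -0.67 with LPS in the knock-in and of 2.31 and 2.46 in wild type. After LPS, Btg2 was lower in knock-in than in wild-type cells by a log2 difference of -3.15 and Tsc22d3, a glucocorticoid-induced gene, higher by 2.59. Of 9 genes of tRNA cleavage and tRNA stress, 6 were higher and 2 lower with LPS in the knock-in, and 2 were higher and 4 lower in wild type. These counts stand beside the same shares over all genes. Ang, which encodes the tRNA-cleaving enzyme angiogenin, had log2 changes with LPS of 0.74 in the knock-in (limma adjusted p = 2.22e-06) and 0.13 in wild type (limma adjusted p = 0.304). Without LPS, no gene of these 4 lists was called between knock-in and wild type in either direction. Of all 11919 genes tested, 1 was called higher and 0 lower there, so this says nothing particular about the lists.

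The genes with the most similar pattern to each member were found by the root mean square difference of centred log2 values over the 8 libraries, among 9603 genes. Slfn9 was most like Tpr, a nuclear pore gene (0.054), Dnm1l (0.071) and Syne1 (0.075). Slfn5 was most like Spry2, an inhibitor of receptor signalling (0.067), Dtx3l, a ubiquitin ligase gene (0.073), and Zufsp (0.081). Slfn2 was most like Mefv, the gene for pyrin (0.083), Rcan1, an inhibitor of calcineurin (0.084), and Bcl2a1b, a survival gene with near-identical copies (0.085). Slfn8 was most like Fgl2 (0.099), the chemokine gene Ccl5 (0.15) and Mndal (0.15). Slfn1 was most like the interferon-induced GTPase genes Tgtp2 (0.16) and Tgtp1 (0.17), which are near-identical copies, and Pydc4 (0.20). Slfn4 had no match as close, with Mx1 (0.44), Ifit3 (0.45) and Gbp6 (0.50) the nearest, and Slfn1 was its nearest member (0.41). For Slfn4 this measure takes in the gap of 1.59 on the log2 scale between its wild-type LPS replicates. Its larger distances therefore do not show a group pattern of its own. Slfn3 was most like Lrrc41, Dcaf13 and Ccdc167 (0.15 to 0.16).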

How the data were processed

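RNA-seq was done on 8 libraries in 4 groups, taken from the sample labels. The tools named per the submitters' processing notes are edgeR, bedtools and TopHat2 2.0.9, with the build mm9. The sources used here give no counting rule, strand or annotation. The authors deposited 1 table of a signal per gene, which has the form of TMM-scaled CPM: each column steps in multiples of 1 read, and dividing by it returned whole reads for 100% of nonzero values, to a tolerance of 0.001. Counts of 1 to 59 reads were even in 65.2% to 67.8% of cases, so mates of a pair may have been counted separately.

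Tests were 2-sided and used log2(value + 1) with a variance trend in limma 3.58.1 (R 4.3.3), on 11919 genes and all 8 libraries, with 4 residual and 19.1 prior degrees of freedom. Benjamini-Hochberg adjustment ran over all genes in each of 5 comparisons. A fold change on this scale understates the change of low genes; folds of means are on the deposited scale. The alternatives were edgeR 4.0.16 and DESeq2 1.42.0 on the recovered reads, other pseudocounts, filters and scalings, and single libraries left out. The test was run on simulated counts that had the same relative spread for every gene. That check does not cover genes with replicates as far apart as those of Slfn4. All members are named in every comparison; of each other list up to 4 genes with the largest change past the threshold are named, plus Ifnb1, Stat2, Irf9 and Irf7, and 3 most similar genes per member. Some genes that this rule names are not reported here. AI662270 was named after its values were seen. The members and lists were chosen with earlier results of these data known. Other cell types were read from marker lists of T and B cells, mast cells and basophils, dendritic cells, and erythroid cells and megakaryocytes, besides those reported.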

Additional observations from a re-analysis of the deposited data

Results flagged for a closer look

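The LPS effect differed between genotypes by the interaction term for each of the 7 members, where 31.8% of all genes tested were called higher and 31.8% lower. Subtracting the wild-type LPS effect from the knock-in one gave -2.03 for Slfn2, 1.497 for Slfn1, 1.53 for Slfn4, -0.45 for Slfn3, -0.36 for Slfn9, 0.36 for Slfn8 and 0.16 for Slfn5, on the log2 scale. Of 18 alternatives each, the call held in 8 for Slfn5, 11 for Slfn3, 15 for Slfn4 and 15 for Slfn9. The knock-in LPS libraries, which enter each of these, also differed in Xist and Y-linked transcripts.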

How the results depend on the processing

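Of 670 repeats of single-member changes, 637 kept their direction and their side of the threshold, 29 lost the call, 3 gained it and 1 reversed: the Slfn3 change with LPS in the knock-in was -0.10 without untreated knock-in replicate 2, and 0.38 without replicate 1. The number of members lower with LPS in the knock-in ranged from 0 to 1 with single libraries left out, and the number lower in untreated knock-in cells from 0 to 1. For the difference of LPS effects, the members higher numbered 2 with no filter, 2 by DESeq2 and 2 with no variance trend, and the members lower 1 to 3 with single libraries left out. Between untreated genotypes, all genes called higher numbered 0 with no filter, 27 by DESeq2 and 0 with no variance trend, and 1 to 261 with single libraries left out. Those lower numbered 1 at a pseudocount of 4 and 37 by DESeq2, and 0 to 220 with single libraries left out. The cause of these was not tested. Without the knock-in LPS libraries, 6 members still rose with LPS in wild type. With the replicate number as a block, no call of a member changed, and 5 members rose and 1 fell with LPS in the knock-in. The correlation of same-numbered deviations ran from -0.15 to 0.18 between groups, so the numbers are not taken to pair the samples. Where a left-out library leaves a group with 1, that library is assumed to vary like the others. The lowest member count was 430 reads in a library, and counting error was not separated from the spread between replicates.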

Other observations

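Between the wild-type LPS libraries, Slfn4 differed by 1.59 on the log2 scale, from replicate 2 minus replicate 1. Of 10115 genes with a group mean of 5 or more, 3 differed by more in that direction, and these were named after their values were seen. They were Myl6b (45.1 CPM in replicate 2 and 5.00 CPM in replicate 1), Rn45s, the ribosomal RNA precursor (2140.1 and 688 CPM), and Lars2, a mitochondrial leucyl-tRNA synthetase gene (290.5 and 94.2 CPM). The median of 30 interferon-stimulated genes differed by 0.11 in the same direction, and 27 of them were higher in replicate 2. Over all 10115 genes the median difference was 0.013, and 5517 were higher in replicate 2. The other Schlafen genes differed by -0.31 to 0.30. Of the 10115 genes, 98.5% had a lower signed difference than Slfn1, 94.3% than Slfn8, 68.5% than Slfn5 and 66.8% than Slfn2. For Slfn9 and Slfn3 these shares were 13.1% and 1.49%, so Slfn1 and Slfn3 also lay near the ends of the range.

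T and B cell markers summed to 47.3 to 50.8 CPM in knock-in LPS libraries and 77.2 to 82.5 CPM in wild-type LPS libraries, mast cell and basophil markers to 81.3 to 84.1 CPM and 58.8 to 61.5 CPM, dendritic cell markers to 0.579 to 0.723 CPM and 2.84 to 3.75 CPM, and erythroid and megakaryocyte markers to 3.45 to 3.76 CPM and 6.67 to 6.68 CPM. Of these lists, Mcpt4 of the mast cell and basophil markers was at 0 in all libraries.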
